A study of Homo sapiens with 6 samples.

Results

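The genes described are the receptors for prostanoids and the carriers that move prostanoids across the plasma membrane, with PTGFRN, a membrane protein named for its action on the prostaglandin F2alpha receptor. They were taken by symbol: PTGER1, PTGER2, PTGER3, PTGER4, PTGIR, PTGFR, TBXA2R, PTGFRN, SLCO2A1 and ABCC4, 10 of the 63241 genes in the table. RNA came from MDA-MB-231, an established human breast cancer cell line of the triple-negative kind grown as a bulk culture. The control libraries (n = 3) are from non-treated cells, with no vehicle named in the labels. The ArA libraries (n = 3) are from cells given 40 µM of ArA, which the study's title spells out as arachidonic acid, and cultured for 24 h. Values are in TPM, the share of all transcripts in a library that a gene's transcripts make up after division by transcript length. TPM can be compared between genes, but holds no read counts, and library depth is therefore unknown.

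Prostanoids are signalling lipids made from arachidonic acid by the cyclooxygenases and the prostaglandin and thromboxane synthases. They act outside the cell on G protein-coupled receptors. The prostaglandin E2 receptors EP2 and EP4, encoded by PTGER2 and PTGER4, couple to Gs and raise cAMP, as does the prostacyclin receptor PTGIR. EP3, encoded by PTGER3, couples mainly to Gi, and EP1 (PTGER1), the prostaglandin F receptor PTGFR and the thromboxane A2 receptor TBXA2R signal mainly through Gq and calcium. The signal of prostaglandin E2 can end when it is taken up, by the carrier SLCO2A1, and is oxidised inside the cell. ABCC4, also known as MRP4, exports prostanoids.

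The line's identity markers matched its label in part. VIM stood at 1335 to 1515 TPM, CD44 at 303.7 to 376 TPM, AXL at 259.9 to 348.6 TPM and FN1 at 115.2 to 155.7 TPM. ESR1 was at most 0.03 TPM, and PGR was listed at 0 in all 6 libraries. ERBB2, which codes for the third receptor that the term triple-negative refers to, had 31.99 to 41.82 TPM. This is a level of RNA, and the data hold no protein values. Of the cadherins and epithelial markers, the mesenchymal CDH2 was at most 0.35 TPM, the epithelial CDH1 at most 0.17 TPM, and EPCAM had 3.17 to 6.92 TPM. Of the blood cell markers, PTPRC was at most 0.15 TPM, and HBB was listed at 0 throughout. Of the 7 fibroblast and muscle markers, COL1A1, PDGFRB and ACTA2 had means of 6.38, 4.48 and 2.6 TPM, while COL1A2 and DCN were at most 0.13 and 0.05 TPM. Libraries differed along GC content in a way that cut across the groups: in the tenth of tested genes with the lowest GC content (38.5% or less), the mean deviation from the gene's own mean on the log2(TPM + 1) scale was -0.43 in control replicate 2 and -0.33 in ArA replicate 1, against 0.13 to 0.23 in the other 4 libraries. In the tenth with the highest GC content it ranged from -0.10 to 0.06. Mitochondrially encoded transcripts took 31.6 to 32.9% of TPM in the control libraries and 32.1, 28.0 and 26.9% in ArA replicates 1, 2 and 3, the last 2 below every control library. The median log2 fold change over all tested genes was 0.06 with TPM as deposited and -0.0022 after rescaling without these transcripts. It was 0.0089 under median of ratios and 0.0053 under quantile normalization.

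EP2 and EP4 bind the same ligand and couple to the same G protein, and their transcript levels lay far apart. The RefSeq promoter windows of both genes (250 bases before to 50 after the start, forward strand, GRCh38.p14) are shown because the pair shares a ligand and a G protein but not a transcript level. Capitals mark 3 motifs, each searched on both strands. The GC box is GGGCGG, which Sp family factors bind. The letters CCAAT are the site of the factor NF-Y. The half-site of the cAMP response element is TGACG. The PTGER4 window is chr5:40679665-40679964, and the PTGER2 window is chr14:52314062-52314361. The RefSeq start in these windows lies 417 bases inside PTGER4 and 7 bases inside PTGER2 as GENCODE v29 draws the genes.
PTGER4: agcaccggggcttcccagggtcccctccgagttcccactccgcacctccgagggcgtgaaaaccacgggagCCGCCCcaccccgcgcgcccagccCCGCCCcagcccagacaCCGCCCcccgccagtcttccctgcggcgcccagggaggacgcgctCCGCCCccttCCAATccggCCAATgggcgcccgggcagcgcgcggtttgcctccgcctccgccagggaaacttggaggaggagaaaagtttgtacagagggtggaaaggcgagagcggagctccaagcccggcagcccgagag
PTGER2: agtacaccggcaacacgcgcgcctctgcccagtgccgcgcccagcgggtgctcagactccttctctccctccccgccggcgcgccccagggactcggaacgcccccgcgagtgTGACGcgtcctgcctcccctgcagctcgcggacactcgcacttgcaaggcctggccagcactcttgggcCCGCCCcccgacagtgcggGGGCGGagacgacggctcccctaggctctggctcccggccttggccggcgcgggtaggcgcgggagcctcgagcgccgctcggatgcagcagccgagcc
The PTGER4 window held 4 GC boxes and 2 CCAAT boxes, and the PTGER2 window 2 GC boxes and 1 cAMP half-site. GC boxes stand in 45.0% of the 35116 promoter windows in the RefSeq table, CCAAT boxes in 34.6% and cAMP half-sites in 24.6%. Neither window held the TATA box, searched as TATAAA and found in 11.5% of windows. Neither held the full palindromic cAMP response element, which contains the half-site on both strands and stands in 1.8% of windows.

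Both windows were rich in CpG, with 30 CpG in PTGER4 and 37 in PTGER2, against a median of 14 over all windows. Of the 10 genes, 7 had a window in the table. ABCC4 had the most CpG of the 7 (47, with 79.7% GC), then PTGER2, PTGER4, PTGFRN (25), TBXA2R (24), PTGER1 (16) and PTGFR (12, with 57.0% GC). The PTGFR window belongs to a RefSeq start 187090 bases inside the gene's GENCODE span. PTGER2, at a mean of 0.250 TPM, thus had more CpG in its window than PTGFRN, at 19.1 TPM, so the order of CpG content was not the order of transcript levels. Any relation between CpG content and transcript level was not tested. PTGER3, PTGIR and SLCO2A1 had no entry.

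Only 4 of the 10 genes reached a mean of 1 TPM over the 6 libraries. The other 6 (PTGER1, PTGER2, PTGER3, PTGIR, PTGFR and SLCO2A1) are called absent by that rule, although some gave low values in every library. By mean level the order was PTGFRN (19.1 TPM), ABCC4 (6.27), TBXA2R (3.79), PTGER4 (3.49), PTGFR (0.925), SLCO2A1 (0.327), PTGER2 (0.250), PTGIR (0.0383), PTGER3 (0.00833) and PTGER1 (0). The ranges of PTGFRN and ABCC4 over the 6 libraries did not overlap, nor did those of ABCC4 and TBXA2R, of PTGER4 and PTGFR, or of PTGFR and SLCO2A1. TBXA2R and PTGER4 overlapped, with TBXA2R higher in 4 of 6 libraries. SLCO2A1 and PTGER2 overlapped as well, as did each pair further down the order. Among the 12999 genes at or above a mean of 1 TPM, PTGFRN ranked 4768 by level, ABCC4 8464, TBXA2R 9903 and PTGER4 10144.

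**Figure D1:**
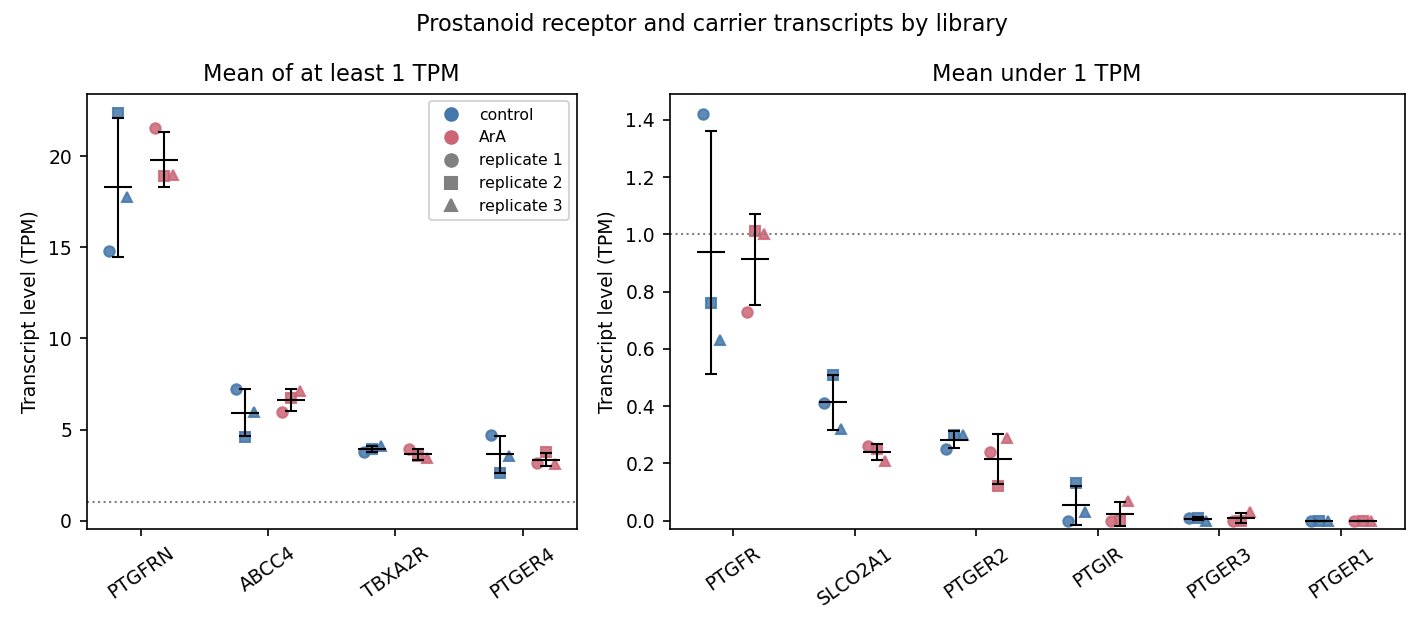
Transcript level in TPM of each gene in each library (blue control, red ArA; the shape gives the replicate number), with the mean and SD of each group as black bars and 1 TPM as a dotted line. PTGFRN lies between 14.81 and 22.38 TPM, and SLCO2A1 is the gene whose control and ArA points do not overlap.

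Libraries with and without ArA were compared to ask whether these transcripts differ after exposure to the precursor of the receptors' own ligands. None of the 4 tested genes passed. In limma on log2(TPM + 1), adjusted by Benjamini-Hochberg over the 12999 genes, 0 of 4 had an adjusted p under 0.05 and 0 of 4 an unadjusted p under 0.05. Over all tested genes, 0.0231% passed the adjusted threshold (3 genes) and 2.78% the unadjusted one. None of the 4 separated the groups, that is, had every ArA value above, or every one below, all control values, which 8.05% of tested genes did. In bulk RNA, fewer cells that carry a transcript and less of it per cell cannot be told apart. The labels do not say whether replicates are separate cultures, so the p-values refer to the spread among these 6 libraries, and that spread may be technical only.

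Of the prostaglandin E2 receptors, PTGER4 was the single one above 1 TPM. PTGER4 (ENSG00000171522) is a protein-coding gene of chromosome 5, from 40679498 to 40693735 on the forward strand (GENCODE v29, hg38, as for all gene spans given). It measured 4.70, 2.64 and 3.56 TPM in control replicates 1, 2 and 3, against 3.16, 3.79 and 3.11 TPM in ArA replicates 1, 2 and 3. The ArA values lay inside the control range, which runs from the lowest to the highest of all 6 libraries. The means were 3.63 ± 1.03 and 3.35 ± 0.379 TPM (SD, n = 3 each). Limma put the log2 fold change at -0.07 with an SE of 0.19 and a 95% interval from -0.53 to 0.39 (adjusted p = 0.999), so folds on this scale from 0.694 to 1.31 lie within the interval. Without control replicate 1, its highest library, the sign turned and the value was 0.09.

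PTGER4 lies within the span of TTC33, a gene on the reverse strand from 40512333 to 40755975. Use of strand in counting is not given in the sources used here, so reads from unspliced TTC33 RNA could be counted with PTGER4, and the level of PTGER4 is uncertain to that extent. The 3961 exonic bases of PTGER4 share 0 bases with TTC33 exons. TTC33 had 4.48, 2.04 and 4.24 TPM (control replicates 1 to 3) against 2.48, 4.25 and 3.97 TPM (ArA replicates 1 to 3). Both genes had their lowest value in control replicate 2 and their highest in control replicate 1, as had ABCC4 on chromosome 13. The longest transcript of TTC33 has a GC content of 34.6%, and control replicate 2 was the library lowest in GC-poor genes. The part of TTC33 in the PTGER4 values was not tested.

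The other E2 receptors were near or at 0. PTGER2 had 0.25, 0.30 and 0.30 TPM (control replicates 1 to 3) against 0.24, 0.12 and 0.29 TPM (ArA replicates 1 to 3). ArA replicate 2 was the lowest, and the groups overlapped through control replicate 1 and ArA replicate 3. The ratio of mean TPM, ArA over control, was 0.765, and 0.935 without ArA replicate 2. PTGER3 was listed at 0.01, 0.01 and 0 TPM (control replicates 1 to 3) against 0, 0 and 0.03 TPM (ArA replicates 1 to 3), and PTGER1 at 0 in all 6. In every library PTGER4 thus stood above each of the other 3 E2 receptors, and its mean was 3.49 TPM against 0.250 TPM for PTGER2.

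TBXA2R, the thromboxane A2 receptor (ENSG00000006638, chromosome 19 from 3594506 to 3606840, reverse strand), was the most uniform of the 4 tested genes. It had 3.79, 3.93 and 4.11 TPM (control replicates 1 to 3) against 3.96, 3.53 and 3.42 TPM (ArA replicates 1 to 3). Its coefficient of variation over all 6 libraries was 7.03%, against 14.3% for PTGFRN, 15.6% for ABCC4 and 20.4% for PTGER4. ArA replicates 2 and 3 were below all control libraries, and ArA replicate 1 was within their range. Limma put the log2 fold change at -0.09 with an SE of 0.13 and a 95% interval from -0.40 to 0.21 (adjusted p = 0.999), which holds folds from 0.759 to 1.16. Without ArA replicate 1 the log2 fold change was -0.14 (limma adjusted p = 0.900, and 0.863 to 1 over all alternatives run).

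PTGFR, the prostaglandin F receptor, lay just under the level of 1 TPM. It had 1.42, 0.76 and 0.63 TPM (control replicates 1 to 3) against 0.73, 1.01 and 1.00 TPM (ArA replicates 1 to 3), so 3 of 6 libraries reached 1 TPM. Control replicate 1 was the highest and control replicate 3 the lowest, with all ArA values between them. The ratio of means was 0.975 with all libraries and 1.31 without control replicate 1. The prostacyclin receptor PTGIR was listed at 0, 0.13 and 0.03 TPM (control replicates 1 to 3) against 0, 0 and 0.07 TPM (ArA replicates 1 to 3), with 3 of 6 libraries at 0.

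PTGFRN (ENSG00000134247, chromosome 1 from 116910057 to 116990358, forward strand) codes for an immunoglobulin-domain protein that associates with the tetraspanins CD9 and CD81. It was the most abundant of the 10, at 14.81, 22.38 and 17.74 TPM (control replicates 1 to 3) against 21.54, 18.92 and 19.00 TPM (ArA replicates 1 to 3). The control libraries spanned the whole range, with replicate 1 lowest and replicate 2 highest. The means were 18.3 ± 3.82 and 19.8 ± 1.49 TPM (SD, n = 3 each). Limma put the log2 fold change at 0.12 with an SE of 0.16 and a 95% interval from -0.25 to 0.50 (adjusted p = 0.999), which holds folds from 0.843 to 1.41. It was -0.01 without control replicate 1 and 0.27 without control replicate 2 (limma adjusted p = 0.774, and up to 1 over all alternatives run).

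ABCC4, the export carrier (ENSG00000125257, chromosome 13 from 95019829 to 95301475, reverse strand), had 7.22, 4.61 and 5.98 TPM (control replicates 1 to 3) against 5.95, 6.75 and 7.12 TPM (ArA replicates 1 to 3). Control replicate 2 was the lowest library and control replicate 1 the highest, so the ArA values again lay within the control range. The means were 5.94 ± 1.31 and 6.61 ± 0.598 TPM (SD, n = 3 each). Limma put the log2 fold change at 0.15 with an SE of 0.17 and a 95% interval from -0.25 to 0.55 (adjusted p = 0.999), with folds from 0.839 to 1.46 in the interval. It was 0.28 without control replicate 1 and 0.0030 without control replicate 2.

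SLCO2A1, the uptake carrier (ENSG00000174640, chromosome 3 from 133928145 to 134052184, reverse strand), separated the groups, at a level far below the export carrier. It had 0.41, 0.51 and 0.32 TPM (control replicates 1 to 3) against 0.26, 0.25 and 0.21 TPM (ArA replicates 1 to 3), so each ArA library was below each control library. The means were 0.413 ± 0.0950 and 0.240 ± 0.0265 TPM (SD, n = 3 each), a ratio of 0.581. An exact 2-sided permutation test gave p = 0.1, the smallest that 3 against 3 libraries allow. In limma without a filter on low values (28138 genes) the log2 fold change was -0.19 (SE 0.07), with an unadjusted p of 0.0444 and an adjusted p of 0.980. The log2(TPM + 1) scale understates changes at this level. Among the 15139 genes above 0 in any library with a mean under 1 TPM, 2.33% had every ArA value below every control value. That share counts the direction seen for SLCO2A1 only. It includes genes at 0 in some libraries, while SLCO2A1 was above 0 in every library, so the 2 are not fully alike. The ratio stayed between 0.522 and 0.658 with each library left out in turn and was 0.556 under both other scalings tried for it.

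The same permutation test was run on the other genes under 1 TPM. The exact p was 0.2 for PTGER2, 0.9 for PTGFR, 0.7 for PTGIR and 1 for PTGER3, and these 5 tests were not adjusted for their number. In the fit without a filter, 0 of 9 genes had an adjusted p under 0.05 in limma, and 1, SLCO2A1, an unadjusted p under 0.05. In that fit 0.00711% of genes passed the adjusted threshold (2 genes) and 3.04% the unadjusted one (854 genes).

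**Figure D2:**
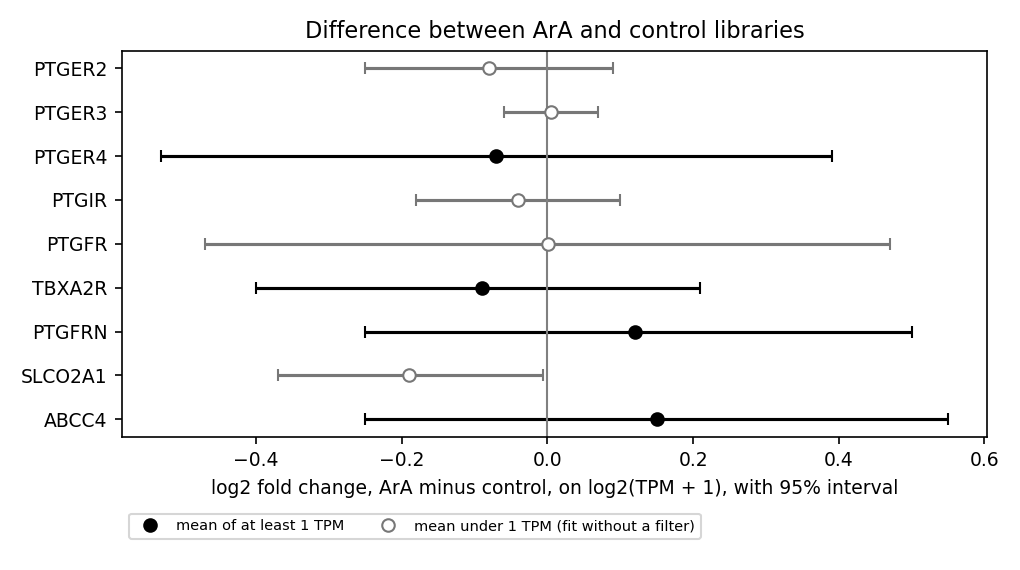
Log2 fold change, ArA minus control, with 95% intervals from limma on log2(TPM + 1) for the 9 genes above 0 (filled, at least 1 TPM; open, under 1 TPM, from the fit without a filter). The 4 filled intervals all include 0, and that of SLCO2A1 ends just below it, at -0.0065, before adjustment.

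For 3 of the 4 tested genes the spread lay mostly between control libraries. The SD of the control libraries exceeded that of the ArA libraries for PTGER4, PTGFRN and ABCC4, with coefficients of variation of 28.4, 20.8 and 22.0% in control and 11.3, 7.52 and 9.05% in ArA libraries. TBXA2R had 4.07 and 7.85%. Control replicates 1 and 2 stood at opposite ends for PTGER4, PTGFRN and ABCC4: PTGER4 and ABCC4 were highest in replicate 1 and lowest in replicate 2, and PTGFRN the reverse. Control replicate 2 was also the library lowest in the GC-poor genes, at -0.43. The longest transcripts of ABCC4, PTGFRN, PTGER4 and TBXA2R have a GC content of 43.2, 51.6, 51.7 and 63.4%.

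Removing each library's trend with GC content narrowed the range over libraries on the log2(TPM + 1) scale from 0.55 to 0.36 for ABCC4 and from 0.56 to 0.37 for PTGFRN. It widened the range from 0.65 to 0.85 for PTGER4 and from 0.21 to 0.28 for TBXA2R. After it, the log2 fold changes were 0.16 for ABCC4 (SE 0.13), 0.11 for PTGFRN (SE 0.12), -0.09 for PTGER4 (SE 0.22) and -0.11 for TBXA2R (SE 0.14), each with a limma adjusted p of 0.999.

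**Figure D3:**
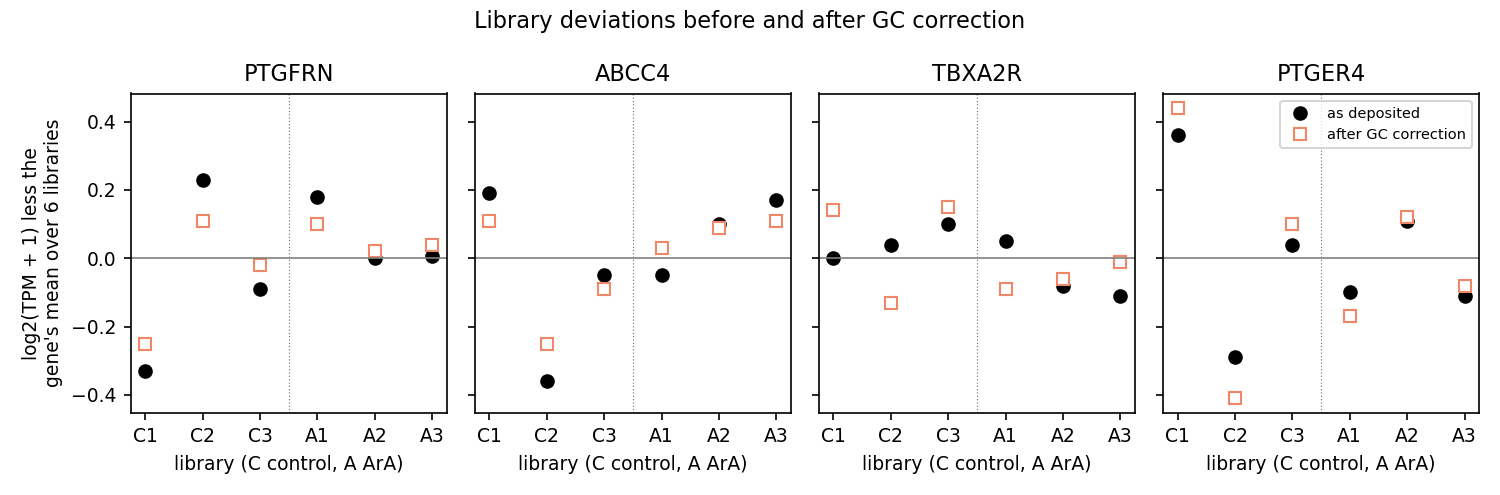
Deviation of log2(TPM + 1) from each gene's mean over the 6 libraries (C1 to C3 control, A1 to A3 ArA), as deposited (filled circles) and after GC correction (open squares). ABCC4 and PTGFRN draw closer to 0 in control replicates 1 and 2 after the correction, and PTGER4 moves further away, to 0.44 and -0.41.

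Other genes of the pathway were taken from 9 lists of 115 genes, of which 87 had a mean of at least 1 TPM. The lists were chosen with earlier results of these data known, so shares in them above those of all tested genes are not independent evidence. None passed: 0 of 87 had a limma adjusted p under 0.05, and 4 had an unadjusted p under 0.05 (4.6%, against 2.78% of all tested genes). With TPM as deposited the groups were separated for 14 of the 87 (16.1%, against 8.05% of all tested genes). Of these, 12 were higher and 2 lower with ArA, where 6.84 and 1.21% of all tested genes were separated in those directions. The log2 fold change was positive for 64 of the 87, against 68.9% of all tested genes, and the median was 0.06 in both. These counts depended on the scaling. Under median of ratios, quantile normalization and rescaling without mitochondrially encoded genes, 48, 49 and 47 of the 87 were positive, against 53.2, 51.7 and 49.2% of all tested genes. The groups were then separated for 5, 6 and 7 of the 87, against 5.34, 5.72 and 6.07% of all tested genes. Of these, 5, 5 and 5 were higher and 0, 1 and 2 lower. Of the 14 genes separated as deposited, PTGES and VEGFA were separated in the same direction under all 3 other scalings. The remaining prostanoid receptors, both for prostaglandin D2, were low or absent: PTGDR was listed at 0 in all 6 libraries and PTGDR2 had a mean of 0.0650 TPM.

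Of 9 synthesis genes, 5 were tested and 4 of these were positive (3 under each other scaling). PTGES, the inducible prostaglandin E synthase, had 11.26, 13.47 and 10.78 TPM (control replicates 1 to 3) against 20.68, 18.75 and 18.44 TPM (ArA replicates 1 to 3), all ArA values above all control values, with a limma adjusted p of 0.690. PTGS2, the inducible cyclooxygenase, had 20.3 ± 3.93 and 20.7 ± 2.35 TPM (SD, n = 3 each). PTGES2 had 31.5 and 32.9 TPM on average, and PTGES3, a chaperone partner that is also a prostaglandin E synthase and was the most abundant of the list, 203 and 194 TPM. The synthases for prostaglandin D2 and prostacyclin, PTGDS, HPGDS and PTGIS, were listed at 0, and PTGS1 had a mean of 0.388 TPM.

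All 5 breakdown genes were tested, and their median log2 fold change was 0.16, with 3 positive. HPGD, which oxidises prostaglandins after uptake, averaged 1.17 ± 0.441 TPM without and 0.930 ± 0.130 TPM with ArA (SD, n = 3 each). The carbonyl reductases CBR1 and CBR3, of which CBR1 can reduce prostaglandin E2, had means of 48.4 and 12.3 TPM without and 55.0 and 13.9 TPM with ArA. Neither passed.

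Of 16 other organic anion carriers, 8 were tested, 6 of them positive (5 under each other scaling), and their median was 0.12. ABCC3, an exporter of organic anions, had 12.36, 12.32 and 11.44 TPM (control replicates 1 to 3) against 16.63, 16.14 and 15.29 TPM (ArA replicates 1 to 3), a full separation with a narrow spread, which was lost under quantile normalization. Its log2 fold change was 0.38 (95% interval 0.15 to 0.62), with an unadjusted p of 0.00630 and a limma adjusted p of 0.999. ABCC5 had 14.9 ± 0.666 and 17.2 ± 1.29 TPM and ABCC1, the most abundant, 28.7 ± 3.37 and 32.4 ± 1.13 TPM (SD, n = 3 each). ABCC1, ABCC3 and ABCC5, all of the same transporter family as ABCC4, were thus at levels above ABCC4, while ABCC2 and ABCC11, also of that family, were below it with means of 0.92 and 0.153 TPM. Of the SLCO carriers on this list, SLCO1B3 averaged 10.1 TPM without and 10.9 TPM with ArA. Without and with ArA, SLCO4C1 averaged 5.09 and 4.96 TPM, SLCO3A1 4.75 and 6 TPM, and SLCO4A1 2.46 and 2.57 TPM. SLCO1A2, SLCO1B1 and SLCO2B1 had means under 1 TPM. SLC22A6, SLC22A7 and SLC22A8 were listed at 0.

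Downstream of the receptors, 24 genes of the Gs, Gi and cAMP arm were tested, with a median of 0.06 and 19 positive (14 or 15 under the other scalings). GNAS, which codes for the Gs alpha subunit, averaged 536 ± 25.6 TPM without and 587 ± 7.17 TPM with ArA, and ADCY7, an adenylyl cyclase, 8.22 ± 0.730 and 9.80 ± 0.610 TPM (SD, n = 3 each). In the Gq and G12/13 arm 16 genes had a median of 0.03. Its most abundant member RHOA had 534 and 535 TPM on average, and the calcium channels of the endoplasmic reticulum ITPR3 and ITPR1 had means of 51.6 and 21.2 TPM without and 59.0 and 26.2 TPM with ArA. The 7 kinases and arrestins that desensitise receptors had a median of 0.0099. Without and with ArA, GRK2 averaged 19.0 and 21.2 TPM, GRK5 2.07 and 2.20 TPM and GRK6 36.5 and 36.4 TPM. Of the 7, 0 separated the groups, against 8.05% of all tested genes, and 7 genes are too few to tell 0 from that share.

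Genes known to respond to cAMP had log2 fold changes of both signs. Of 14 tested, 9 were positive and 5 negative, against 68.9% positive over all tested genes. With TPM as deposited 5 separated the groups (35.7%), 3 higher and 2 lower, against 8.05% of all tested genes, 6.84% higher and 1.21% lower. Under median of ratios and quantile normalization 2 of the 14 separated the groups (14.3%), against 5.34 and 5.72% of all tested genes. After rescaling without mitochondrially encoded genes 4 of the 14 did (28.6%), against 6.07% of all tested genes. This list too was chosen with earlier results of these data known, so its excess over all tested genes is not independent evidence. DUSP1, a phosphatase of MAP kinases, had 22.33, 27.89 and 26.46 TPM (control replicates 1 to 3) against 31.11, 34.59 and 32.70 TPM (ArA replicates 1 to 3), all ArA values being higher, though not under median of ratios. PER1, a clock gene, had 4.59, 5.86 and 4.06 TPM (control replicates 1 to 3) against 3.95, 3.01 and 3.10 TPM (ArA replicates 1 to 3), all ArA values being lower, which held under 1 of the 3 other scalings. VEGFA, the angiogenic factor and most abundant of the list, had 53.4 ± 2.65 and 61.1 ± 1.87 TPM (SD, n = 3 each). The unadjusted p was 0.0163 for DUSP1 and 0.0435 for PER1, and the limma adjusted p was 0.999 for all 3.

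The 8 genes grouped with PTGFRN were tetraspanins, related immunoglobulin-domain proteins and the ERM linkers to actin. All were above 0 in log2 fold change with TPM as deposited, against 68.9% of all tested genes. Under each other scaling 6 of 8 were above 0. Of all tested genes, 53.2, 51.7 and 49.2% were above 0 under median of ratios, quantile normalization and rescaling without mitochondrially encoded genes. Their median was 0.15, against 0.06 over all tested genes. While 8.05% of all tested genes separated the groups, 1 of the 8 did. This was MSN, which codes for the linker moesin, at 317.8, 383.7 and 343.2 TPM (control replicates 1 to 3) against 401.2, 387.3 and 384.7 TPM (ArA replicates 1 to 3), and under each other scaling its groups overlapped. IGSF8, a close relative of PTGFRN, had 21.7 ± 3.39 and 26.2 ± 2.76 TPM, and the tetraspanin CD151 643 ± 63.0 and 704 ± 68.2 TPM (SD, n = 3 each). PTGFRN itself, at 18.3 and 19.8 TPM, was thus far below CD151, CD9 (485 and 526 TPM) and CD81 (349 and 395 TPM) in both groups.

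**Figure D4:**
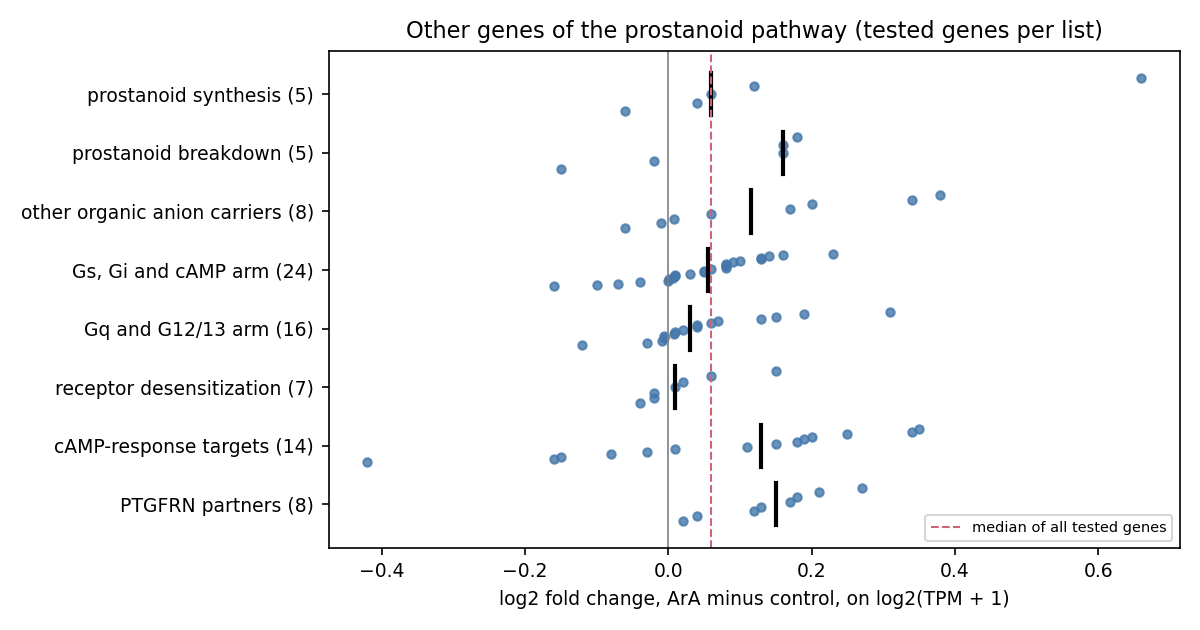
Log2 fold change, ArA minus control, on log2(TPM + 1) of each tested gene (points) in 8 lists, with the list's median (black bar) and the median of all tested genes, 0.06 (dashed). PTGES lies furthest to the right at 0.66 and PER1 furthest to the left at -0.42, and most other points lie close to 0.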

How the data were processed

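RNA-seq values of 6 libraries were read from 1 table that the authors deposited in TPM, each column scaled to the same total. The submitters' processing notes name hg38, HISAT2, StringTie and RSEM without roles, with the annotation and strand use not given in the sources used here. Columns were matched to samples by name. Of 63291 lines, 50 name no gene and were left out.

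The 12999 genes that averaged 1 TPM or more were fitted on log2(TPM + 1) with limma 3.58.1 in R 4.3.3 (eBayes with trend), with group as the only term, 2-sided, Benjamini-Hochberg over all tested genes, threshold 0.05. The limma step was tested on simulated data, with log2 changes of 1 or 2 in either direction added to genes averaging 10 TPM or more. That test does not cover the levels of ABCC4, TBXA2R and PTGER4 or smaller changes. Its noise was drawn separately for each gene and library, so deviations shared across genes, such as those along GC content, were not covered. Its recovery rates are not given here. GC content came from the longest GENCODE v29 transcript (97.2% of tested genes matched), and library trends were fitted by a natural spline (5 degrees of freedom). The 10 genes and all lists were chosen with earlier results of these data known. Every list gene past the threshold, up to 2 with the smallest p per list and the most abundant were to be named. Others (PTGS2, PTGS1, PTGDS, HPGDS, PTGIS, PTGDR, PTGDR2, HPGD, SLCO1B3, SLCO4C1, SLCO3A1, SLCO4A1, SLCO1A2, SLCO1B1, SLCO2B1, SLC22A6, SLC22A7, SLC22A8, CD9, CD81, ABCC2, ABCC11 and TTC33) were named after their values were seen. Promoter windows are from RefSeq (GRCh38.p14). Alternatives were 3 scalings, 2 pseudocounts, 2 filters, GC correction, a replicate block, 2 forms of eBayes and each library left out.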

Additional observations from a re-analysis of the deposited data

How the results depend on the processing

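Of 70 recomputed values of PTGER4, TBXA2R, PTGFRN and ABCC4, which leave out PTGER4 and TBXA2R at the filter of 5 TPM, 68 kept their sign, 2 turned and 0 passed the threshold. The lowest adjusted p among them was 0.774 in limma. With each library left out in turn, the log2 fold change ran from -0.23 to 0.09 for PTGER4, from -0.01 to 0.27 for PTGFRN, from -0.19 to 0.03 for PTGES3, from -0.07 to 0.09 for RHOA, from -0.02 to 0.11 for GRK5 and from -0.05 to 0.14 for GRK6. RHOA was -0.05, -0.09 and -0.06 and GRK6 -0.04, -0.05 and -0.05 under median of ratios, quantile normalization and rescaling without mitochondrially encoded genes, and GRK6 was -0.0035 after GC correction with and without the replicate block. The cause was not tested.

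Over all genes, 3 passed in the main analysis and 5 after GC correction, and 0 to 7 with a library left out: 0 without control replicate 1 or ArA replicate 2, and 7 without control replicate 2 or ArA replicate 1. The cause was not tested. With the replicate number as a block 0 genes passed, and 0 with the block and GC correction, with 232 and 410 genes at an unadjusted p under 0.05. Deviations of same-numbered libraries from their group means correlated at -0.16, -0.28 and 0.11 across genes. Control replicates 1 and 2 correlated best with ArA replicates 2 and 1. These values were not corrected for GC content, and control replicate 2 and ArA replicate 1 were both low in GC-poor genes. The correlations therefore cannot decide whether the replicate numbers pair the samples. The replicate block changed no call on the receptors and carriers. The unknown depth limits what can be said of the 6 genes under 1 TPM, for which no counting error can be given.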
